A study of Mus musculus with 6 samples.

Results

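The Ifit, Oas and Rsad2 genes, with Isg15, encode antiviral effectors that cells make in response to type I interferon. The list held 10 genes, Ifit1, Ifit2, Ifit3, Oas1a, Oas1g, Oas2, Oas3, Oasl2, Rsad2 and Isg15, and its members were every probe set that the platform annotation assigns to 1 of these symbols alone. By that rule 8 of the 10 genes were represented, by 10 probe sets, among 18193 genes with such a probe set in the whole table. Isg15 shares its probe set with another gene and Oas1g has none of its own in that annotation, so neither is analysed here. The rule rests on the comparison of knockdown with control in these same arrays, and the list was drawn up with its results known, so the differences of the members are given as a description, with no test.

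Transcript abundance was measured in AtT-20 cells with 1 biotin-labelled array per RNA sample. AtT-20 is a line from a mouse pituitary tumour that keeps features of corticotrophs, the cells that secrete ACTH. Cells of the first group received 20 nM siDNMT1, an siRNA against the maintenance DNA methyltransferase gene Dnmt1, repeatedly until day 8. Cells of the second group received 20 nM siNT, a non-targeting siRNA, on the same schedule. Both groups thus carried transfected siRNA, and untreated AtT-20 cells were not analysed here. The procedure was done in 3 independent repeats, giving 3 siDNMT1 and 3 siNT arrays numbered 1 to 3, and a number joins the 2 arrays of 1 repeat.

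Interferon receptors signal through Jak1 and Tyk2 to a complex that contains Irf9 and binds the interferon-stimulated response element, or ISRE, before genes of this kind. Ifit proteins bind viral RNA and block its translation. Oas enzymes sense double-stranded RNA and make 2-5A, a short oligoadenylate that acts as a second messenger. Rsad2, or viperin, makes a nucleotide that ends viral RNA chains, and Isg15 is a ubiquitin-like protein that Uba7, Ube2l6 and Herc6 attach to targets and Usp18 removes.

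The sequences before the start sites are shown because the ISRE is the feature these genes are best known to share. RefSeq windows of build GRCm38.p6 covered 9 of the 10 listed genes, all but Oas2. In the 250 bases before the start, the ISRE core, spelled as GAAA, any 2 bases and GAAA and searched on both strands with overlaps kept, was found for 7 of the 9 genes, while 2.98% of all 32851 windows of this length held it. The 5 windows of measured genes that hold it are printed 5′ to 3′ on the gene's strand, with every match in capitals.
Ifit1 (GRCm38.p6 chr19:34640639-34640888, plus strand): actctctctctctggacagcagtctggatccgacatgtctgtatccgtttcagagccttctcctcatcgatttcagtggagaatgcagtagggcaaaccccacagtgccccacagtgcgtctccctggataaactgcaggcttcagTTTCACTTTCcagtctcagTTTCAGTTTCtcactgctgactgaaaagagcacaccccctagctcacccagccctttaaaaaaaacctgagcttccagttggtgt
Ifit3 (GRCm38.p6 chr19:34583279-34583528, plus strand): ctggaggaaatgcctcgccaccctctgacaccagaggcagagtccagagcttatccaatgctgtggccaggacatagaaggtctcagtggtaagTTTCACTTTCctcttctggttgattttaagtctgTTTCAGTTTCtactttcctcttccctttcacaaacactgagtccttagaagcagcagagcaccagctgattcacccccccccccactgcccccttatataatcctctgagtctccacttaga
Oas1a (GRCm38.p6 chr5:120907526-120907775, minus strand): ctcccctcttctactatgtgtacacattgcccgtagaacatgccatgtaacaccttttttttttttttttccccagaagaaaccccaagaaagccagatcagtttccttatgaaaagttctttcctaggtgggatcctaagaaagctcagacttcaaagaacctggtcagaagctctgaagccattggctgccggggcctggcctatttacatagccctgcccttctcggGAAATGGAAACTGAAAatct
Oas3 (GRCm38.p6 chr5:120777660-120777909, minus strand): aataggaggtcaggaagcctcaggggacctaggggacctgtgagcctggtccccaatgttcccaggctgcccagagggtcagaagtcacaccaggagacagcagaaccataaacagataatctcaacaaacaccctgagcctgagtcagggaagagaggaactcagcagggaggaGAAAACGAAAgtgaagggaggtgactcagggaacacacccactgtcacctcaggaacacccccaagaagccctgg
Rsad2 (GRCm38.p6 chr12:26456453-26456702, minus strand): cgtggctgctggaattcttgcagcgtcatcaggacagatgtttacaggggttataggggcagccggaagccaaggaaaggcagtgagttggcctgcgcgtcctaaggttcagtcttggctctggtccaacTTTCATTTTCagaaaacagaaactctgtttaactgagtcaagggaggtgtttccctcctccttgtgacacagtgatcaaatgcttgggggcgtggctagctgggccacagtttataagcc

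Ifit1 and Ifit3 carried the same 2 runs, TTTCACTTTC and TTTCAGTTTC, on the opposite strand, ending 95 and 76 bases before the start in Ifit1 and 147 and 113 bases before it in Ifit3. Oas1a had 2 overlapping matches in the run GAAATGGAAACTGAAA, which ends 5 bases before the start, and the window of its paralog Oas1g held the same run. Oas3 had 1 match ending 66 bases before the start and Rsad2 had 1 ending 111 bases before it. The windows of Ifit2 and Oasl2 held no match to these letters. The GAS core, the site of interferon gamma signalling, was spelled as TTC, any 3 bases and GAA. It reads the same on both strands and was present at 1 place each in a window of Ifit2 and in that of Oas1a, against 7.02% of all windows.

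CpG dinucleotides are the sites that Dnmt1 keeps methylated, and all of these windows except those of Ifit2 held no more of them than the median of all windows, 6. Ifit3, Oas3 and Oasl2 had 1 each, Oas1a had 3, Ifit1, Oas1g and Isg15 had 4, Rsad2 had 6, and the 2 windows of Ifit2 had 8 and 9. Methylation itself was not measured.

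The targeted gene was lower in the knockdown in every repeat. Dnmt1, on the brightest of its probe sets, had a scaled signal of 219 ± 79.6 in siDNMT1 cells and 620 ± 80.4 in siNT cells (SD, n = 3), with no overlap (exact two-sided permutation p = 0.1, the smallest that 3 against 3 allow). The remaining share was 39.6%, 20.2% and 48.6% in repeats 1, 2 and 3. The limma adjusted p was 0.151 without and 0.0211 with the repeat number as a block. Scaling brought every array to the same median log2 signal, because deposited medians ran from 20.3 to 36.3 in siDNMT1 and from 19.8 to 33.2 in siNT arrays. Pomc, the hormone precursor gene, and Tbx19, its activator, are corticotroph markers. They had scaled signals of 5576 to 10470 and 1437 to 1670 in siDNMT1 cells. In siNT cells they had 6958 to 10538 and 1375 to 1625. Their differences, siDNMT1 minus siNT on the log2 scale given below, were -0.15 and 0.02. The other listed corticotroph markers differed by -0.36 for Crhr1, -0.35 for Neurod1, 0.08 for Pcsk1 and 0.13 for Pitx1. Crhr1 was lower in siDNMT1 cells in every repeat. The summed signals of 6 marker lists of other cell types overlapped between the groups, though not all were level. The 5 fibroblast markers summed to 141 to 177 in siDNMT1 and 121 to 151 in siNT arrays. Pdgfra, higher in siDNMT1 cells in every repeat, differed by 1.26, Dcn by 0.29 and Col1a2 by 0.05. Col1a1 differed by -0.04 and Col3a1, under the filter, by -0.66. The 3 endothelial markers summed to 83.2 to 102 in siDNMT1 and 53.6 to 90.2 in siNT arrays. The 6 macrophage markers summed to 448 to 555 in siDNMT1 and 503 to 536 in siNT arrays. The brightest of them, Lyz2, had 237 to 282 in siDNMT1 and 270 to 309 in siNT arrays. Ptprc, the common leukocyte gene, had 0.848 to 17.8 in siDNMT1 and 5.24 to 18.6 in siNT arrays. Itgam ran the other way, at 17.1 to 20.4 in siDNMT1 and 2.66 to 17.1 in siNT arrays. Ptprc and Itgam were too dim to be tested. The 3 plasmacytoid dendritic markers summed to 396 to 481 in siDNMT1 and 379 to 605 in siNT arrays. The brightest of them, Tcf4, had 256 to 297 in siDNMT1 and 294 to 452 in siNT arrays. Siglech had 16.1 to 49.4 in siDNMT1 and 11.7 to 63.9 in siNT arrays. The remaining marker, Bst2, is also counted among the interferon-stimulated genes below. The part of other cell types in the values below was not tested.

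The members did not move as 1 group. The Oas genes had higher mean values in siDNMT1 cells, led by Oas2 and Oasl2, while the Ifit genes and Rsad2 had lower ones. Differences are siDNMT1 minus siNT on the log2(scaled signal + 5.29) scale, a scale that understates changes of dim probe sets, and an SD beside a difference is that of the 3 repeats. As total RNA was measured, fewer expressing cells and less RNA per cell cannot be told apart.

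Oasl2 encodes an Oas-like protein that carries ubiquitin-like domains. Its scaled signals were 34.98, 31.4 and 41.3 on siDNMT1 arrays 1 to 3, against 17.7, 12.6 and 26.1 on siNT arrays 1 to 3. All siDNMT1 arrays lay above all siNT arrays, and every repeat had the higher value in siDNMT1 cells. The differences were 0.81, 1.04 and 0.57 in repeats 1 to 3, a mean of 0.81 ± 0.24, or 1.75-fold. The deposited signals before scaling did not overlap either, at 28.1, 45.05 and 37.0 in siDNMT1 and 13.8, 16.5 and 24.7 in siNT cells.

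Oas2 encodes a larger oligoadenylate synthetase with a repeated synthetase domain. Its signals were 41.7, 50.1 and 57.9 on the siDNMT1 arrays, against 6.33, 18.0 and 59.8 on the siNT arrays. The siDNMT1 arrays were close together, whereas siNT array 3 was as bright as any knockdown array and siNT array 1 lay near the pseudocount. The differences were 2.02, 1.25 and -0.04 in repeats 1 to 3, a mean of 1.08 ± 1.04. The spread lay among the controls: the SD of log2 values was 0.21 in siDNMT1 and 1.25 in siNT cells. The siNT value exceeded that of 99.2% of the tested probe sets nearest in mean signal, 500 on each side. The mean difference was 1.74 without siNT array 3 and 0.49 without siNT array 1.

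Oas1a makes 2-5A on double-stranded RNA. It had signals of 316, 294 and 380 in siDNMT1 cells, against 240, 301 and 289 in siNT cells. Repeats 1 and 3 were higher in siDNMT1 cells, repeat 2 was nearly level, and the groups overlapped. The differences were 0.39, -0.03 and 0.39, a mean of 0.25 ± 0.24. Oas1a lies beside its paralog Oas1g on chromosome 5, and without probe-level values the part of the signal that comes from Oas1g cannot be told apart.

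Oas3 encodes the longest of these synthetases, the one known in human cells for binding long double-stranded RNA. Its signals were 126, 110 and 114 in siDNMT1 cells, against 106, 110 and 91.7 in siNT cells. The pattern over repeats was that of Oas1a, with repeats 1 and 3 higher and repeat 2 level. The differences were 0.24, 0.00 and 0.30, a mean of 0.18 ± 0.16. Oas3 varied little across arrays, with a log2 SD of 0.10 in siDNMT1 and 0.13 in siNT cells.

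**Figure D1:**
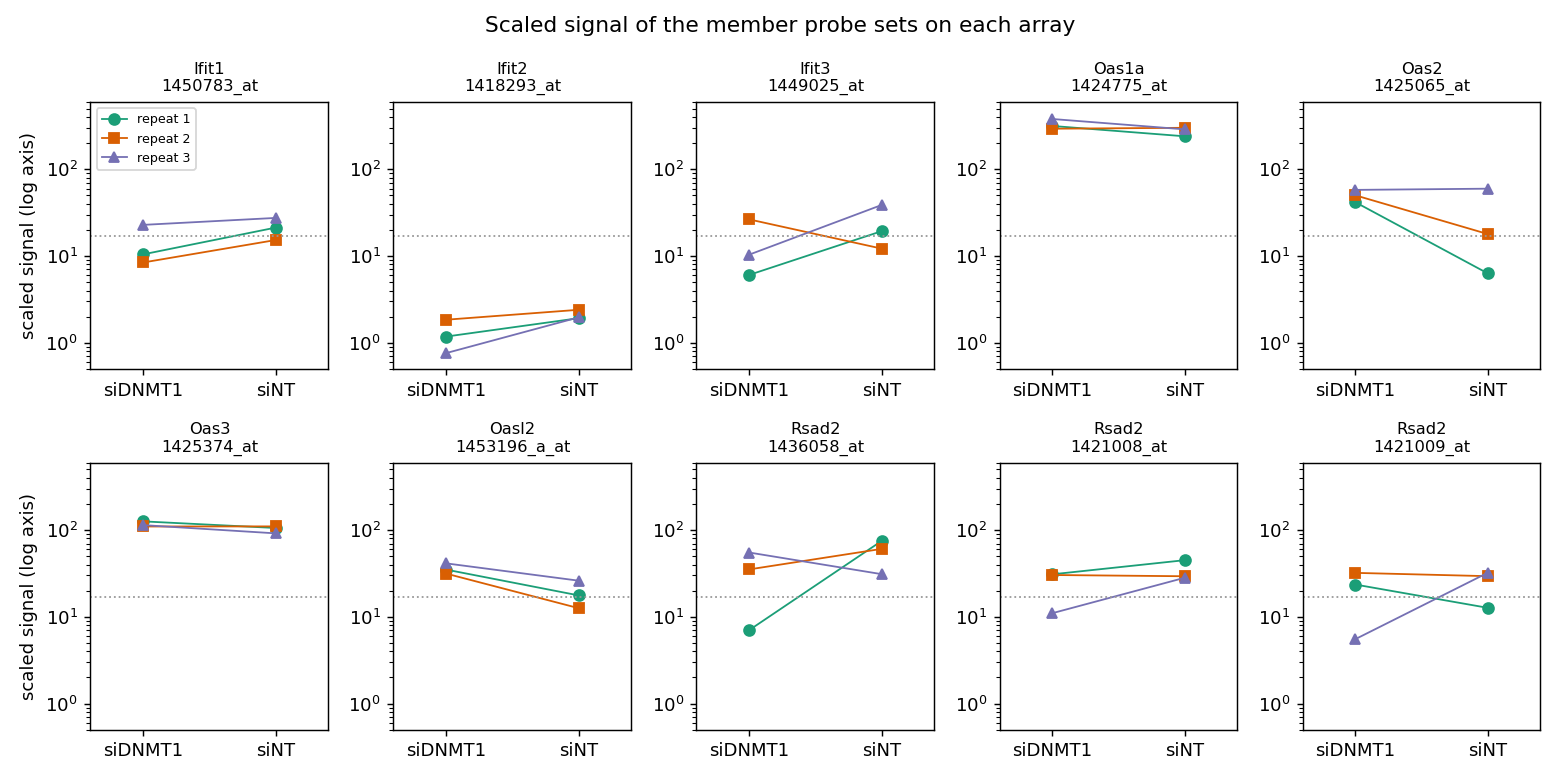
Scaled signal (log axis) of the 10 member probe sets, with siDNMT1 left of siNT in each panel, a line joining the 2 arrays of a repeat and a dotted line at the filter of 16.8. Oasl2 has all siDNMT1 points above all siNT points, the siNT points of Oas2 spread from 6.33 to 59.8, and all points of Ifit2 lie far under the filter.

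Ifit1 binds viral RNA whose cap lacks the methylation of host messages. Its signals were 10.5, 8.44 and 22.9 in siDNMT1 cells, against 21.3, 15.3 and 27.5 in siNT cells. Every repeat had the lower value in siDNMT1 cells, but the groups overlapped because both arrays of repeat 3 were the brighter ones of their group. The differences were -0.75, -0.58 and -0.22, a mean of -0.52 ± 0.27, or 0.698-fold.

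Ifit3, which in human cells binds and stabilises IFIT1, had signals of 6.07, 26.4 and 10.4 in siDNMT1 cells, against 19.4, 12.2 and 38.8 in siNT cells. Repeats 1 and 3 were lower in siDNMT1 cells and repeat 2 was higher, so the groups overlapped. The differences were -1.12, 0.86 and -1.49, a mean of -0.58 ± 1.26. The mean was -0.26 without siDNMT1 array 1 and -1.30 without repeat 2. Ifit1 and Ifit3, with mean signals of 17.7 and 18.9, lay just above the filter of 16.8 below which probe sets were not tested. Their siDNMT1 means of 13.9 and 14.3 lay under it, against siNT means of 21.4 and 23.4. Both were thus tested only through their siNT arrays.

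Ifit2, the Ifit family member linked to cell death, was the dimmest member and was left out by the filter. Its signals were 1.18, 1.85 and 0.762 in siDNMT1 cells, against 1.92, 2.40 and 1.96 in siNT cells. All siDNMT1 arrays lay below all siNT arrays after scaling, but every value was under the pseudocount and the mean difference was -0.18 ± 0.08. The deposited signals overlapped, at 0.947, 2.65 and 0.684 in siDNMT1 and 1.50, 3.15 and 1.86 in siNT cells. No detection call was among the values used here, so whether Ifit2 transcript was present is not known.

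Rsad2 had 3 probe sets, and they disagreed on which repeat was low. The brightest, 1436058_at, had signals of 7.05, 35.2 and 55.1 in siDNMT1 cells, against 74.9, 60.7 and 31.0 in siNT cells. Here siDNMT1 array 1 was far below its control and siDNMT1 array 3 was above it. The differences were -2.70, -0.70 and 0.73, a mean of -0.89 ± 1.72.

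Probe set 1421008_at had 30.9, 30.3 and 11.0 in siDNMT1 cells, against 44.96, 29.4 and 28.2 in siNT cells. Its lowest array was siDNMT1 array 3, and its differences were -0.47, 0.04 and -1.04, a mean of -0.49 ± 0.54, or -0.11 without siDNMT1 array 3. Probe set 1421009_at had 23.5, 32.1 and 5.53 in siDNMT1 cells, against 12.7, 29.4 and 32.1 in siNT cells. It shared the low siDNMT1 array 3 but was higher in siDNMT1 cells in repeats 1 and 2, with differences of 0.68, 0.11 and -1.79, a mean of -0.33 ± 1.29. These last 2 were designed from the same sequence record and the brightest from another. Without repeat 1 the mean of 1436058_at was 0.01, and without repeat 3 that of 1421009_at was 0.39. The direction of these 2 probe sets therefore rested on 1 repeat each, and their groups overlapped on every probe set.

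**Figure D2:**
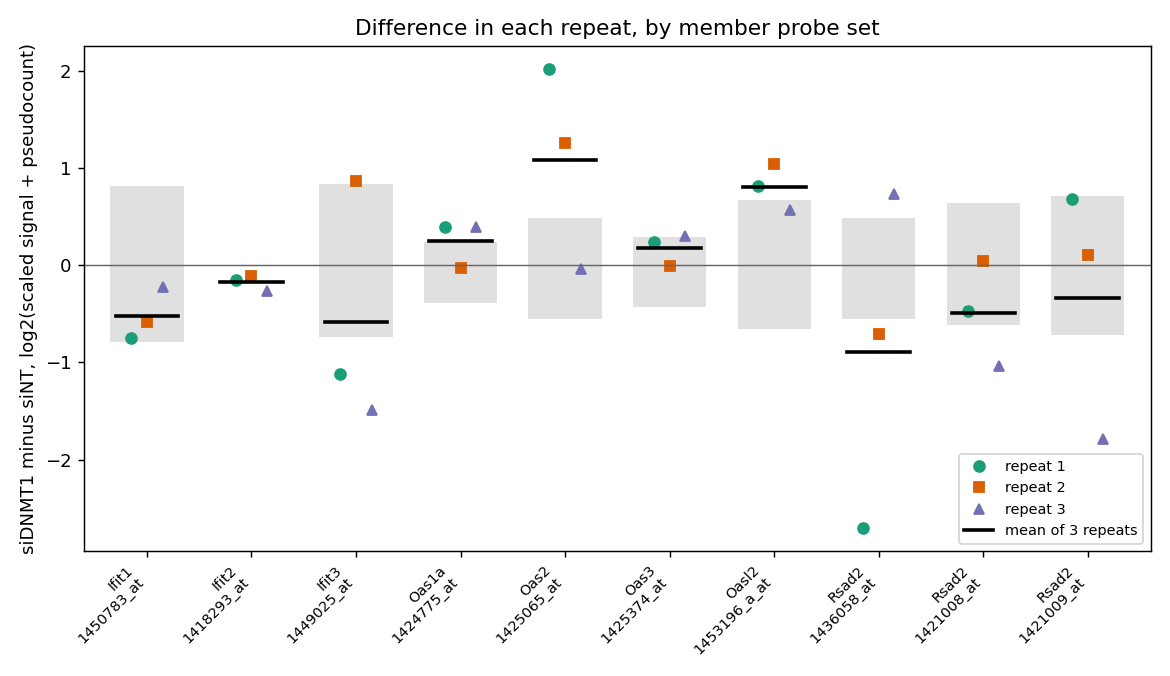
Difference siDNMT1 minus siNT (log2 of scaled signal + pseudocount) of each member probe set, as 3 points for the repeats and a black bar for their mean. The grey box spans the 5th to 95th percentile of the mean difference of tested probe sets nearest in mean signal (Ifit2, not tested, has none). The 3 points of Oasl2 lie together at 0.57 to 1.04, while those of Rsad2 1436058_at run from -2.70 to 0.73.

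Over the 10 probe sets, 4 had higher and 6 had lower means in siDNMT1 cells. Only Oasl2 and Ifit2 had groups that did not overlap, 1 in each direction, and Ifit2 was not among the tested probe sets. Of all 27022 tested probe sets 8.74% did not overlap, 2.96% higher and 5.78% lower in siDNMT1 cells. Of the 10 probe sets 3, those of Oasl2, Ifit1 and Ifit2, had the same sign in all 3 repeats, a share of 30.0% beside 29.3% of the tested probe sets. Nothing is read from these counts, since the genes were chosen on this contrast. The median difference depended on how the members were counted. It was -0.25 over all 10 probe sets, and 0.0020 over the brightest probe sets of the genes when no filter was set, which adds Ifit2. Over the brightest probe set of each of the 7 genes that passed the filter it was 0.18, and in repeats 1 to 3 it was 0.24, -0.0036 and 0.30. Ifit1 and Ifit3 are among these 7 only through their siNT arrays. The median over all tested probe sets was -0.06, and 40.8% of them had higher values.

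The spread between repeats differed widely among the members. Against tested probe sets nearest in mean signal, the SD of the 3 repeat differences lay at the 99.3rd percentile for Rsad2 1436058_at, the 93.8th for Rsad2 1421009_at, the 93.0th for Oas2 and the 92.4th for Ifit3. It lay at the 11.3rd percentile for Ifit1, the 14.3rd for Oasl2 and the 23.6th for Oas3. Oas1a, at the 54.2nd percentile, and Rsad2 1421008_at, at the 57.9th, lay in between.

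The values of chromosomal neighbours were set side by side. In the RefSeq gene order Ifit2, Ifit3 and Ifit1 stand in 1 run on chromosome 19, all with lower means. Oas2 and Oas3 are neighbours on chromosome 5, at 1.08 and 0.18, with Oas1c and Oas1e close by at 0.42 (SE 0.42) and -0.19 (SE 0.35). Oasl1, next to Oasl2, differed by -0.05 (SE 0.29), with signals of 83.9 ± 30.9 in siDNMT1 and 84.5 ± 19.6 in siNT cells (SD, n = 3). Rsad2 stands next to Cmpk2, a nucleotide kinase gene, which had 0.21 (SE 0.25) on its brighter probe set and -0.32 on the other.

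Genes whose signals followed those of a member most closely were named by the root mean square difference between gene-centred log2 values over the 6 arrays. For Ifit1, from 14370 candidate probe sets, these were Tril at 0.09, the cyclin gene Ccnd2 at 0.11 and Rreb1 at 0.11. For Oas2, from 4190, they were H3c4 at 0.18, 4933400F21Rik at 0.27 and Dock2 at 0.27. For the brightest Rsad2 probe set, from 4383, they were 4930481B07Rik at 0.16, Inava at 0.25 and Iffo1 at 0.26. None of the 9 is in the interferon lists used here. With 6 arrays and so many candidates, close profiles turn up for any gene.

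The rest of the interferon pathway was then set beside the members, in lists by role that held no member. These lists too were written with earlier results of these data known, so nothing is read from their counts. Of 129 listed genes, 109 had a probe set of their own and 83 were tested, 54 with higher and 29 with lower values in siDNMT1 cells. With limma 0 of the 83 passed the adjusted threshold of 0.05, in either direction and with or without the repeat block, where 0% of tested probe sets passed without and 0.0851% with it. At an unadjusted p under 0.05 the unblocked fit held 11 higher and 0 lower genes of the lists, and the blocked fit 13 higher and 0 lower. Of all tested probe sets 1.32% were higher and 2.47% lower at that level in the unblocked fit, and 2.45% higher and 5.39% lower in the blocked one.

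Among partners of the Isg15 and 2-5A branches, 6 of 8 had higher values. Ube2l6, the enzyme that hands Isg15 on to its ligases, had 40.3 ± 9.76 in siDNMT1 and 18.8 ± 7.83 in siNT cells (SD, n = 3), a difference of 0.95 (SE 0.34). Usp18, which removes Isg15 and dampens receptor signalling, had 404 ± 148 in siDNMT1 and 267 ± 44.2 in siNT cells, a difference of 0.55 (SE 0.24). The limma adjusted p was 1.00 for both without the block, and 0.535 for Ube2l6 and 0.473 for Usp18 with it. The ligase gene Trim25 differed by 0.32 (SE 0.21), with its 2 dimmer tested probe sets at 0.19 and -0.04. The activating enzyme gene Uba7 differed by 0.26 (SE 0.26), and by 0.34 on its second tested probe set. The Isg15 ligase gene Herc6 differed by -0.07 (SE 0.30), and by 0.27 on its second tested probe set. Abce1, a ribosome recycling factor gene, differed by -0.42 (SE 0.27), and its second tested probe set by -0.75. Pde12, which degrades 2-5A, differed by 0.04 (SE 0.18) on the brighter and -0.41 on the dimmer tested probe set.

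Upstream of the effectors, medians lay near 0. Of 20 listed interferon genes 3 were tested, Ifnb1 at 0.38 (SE 0.32), Ifna1 at -0.40 (SE 0.28) and Ifnab at -0.06 (SE 0.38). The last 2 come from probe sets marked as able to bind other sequences. Receptor and signalling genes were split evenly, 11 higher and 11 lower, with a median of 0.00089. Irf9, the DNA-binding part of the interferon complex, had 66.7 ± 6.74 in siDNMT1 and 36.4 ± 10.02 in siNT cells, a difference of 0.81 (SE 0.25). The kinase gene Jak1 differed by -0.64 (SE 0.31), and its second tested probe set by -1.37. Its dimmest probe set, at 0.18, was left out by the filter. Irf7 differed by 0.29 (SE 0.18) and the receptor chain gene Il10rb by 0.29 (SE 0.19).

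Of the nucleic acid sensors and adaptors 8 were higher and 7 lower, with a median of 0.0079. Sting1, the adaptor of cytosolic DNA sensing, had 81.6 ± 45.2 in siDNMT1 and 30.8 ± 15.1 in siNT cells, a difference of 1.20 (SE 0.40) on its brighter probe set and 0.97 on the other. Its differences in repeats 1 to 3 were 0.63, 2.42 and 0.56. Zbp1, a sensor of Z-form nucleic acid, differed by 0.81 (SE 0.24), while its dimmer probe set was at -0.26. The kinase gene Ikbke had 38.1, 80.4 and 3.74 in the siDNMT1 arrays, against 14.7, 11.1 and 5.97 in the siNT arrays, a difference of 1.06 (SE 0.70). All 3 siNT arrays lay under the filter of 16.8, so Ikbke was tested only through its siDNMT1 arrays, and repeat 3 ran the other way. The adaptor gene Myd88 differed by 0.30 (SE 0.20).

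Of the other interferon-stimulated genes 27 of 32 had higher values, with a median of 0.23. Of all tested genes 39.0% had higher values. In all 3 repeats 13 of the 32 were higher, where 10.1% of all tested probe sets were. Nothing is read from these shares, since the list was written with earlier results known. Ifi35 had 1696 ± 66.1 in siDNMT1 and 1192 ± 106 in siNT cells, a difference of 0.51 (SE 0.14), with its 2 dimmer probe sets at 0.38 and 0.18. The immunoproteasome gene Psmb9 differed by 0.59 (SE 0.23). Rtp4 differed by 1.24 (SE 0.45), with 0.64, 2.53 and 0.55 in repeats 1 to 3, the largest in repeat 2. The virus entry inhibitor gene Ifitm3 differed by 1.54 (SE 0.60), with 0.46, 1.06 and 3.09, the largest in repeat 3. There siDNMT1 array 3 was at 48.5, level with siDNMT1 array 1, and siNT array 3 at 1.01, under the pseudocount. The smallest limma adjusted p of this list was 0.171, with the block, for Ifi35. Whether the members differ from the other interferon genes was not tested.

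**Figure D3:**
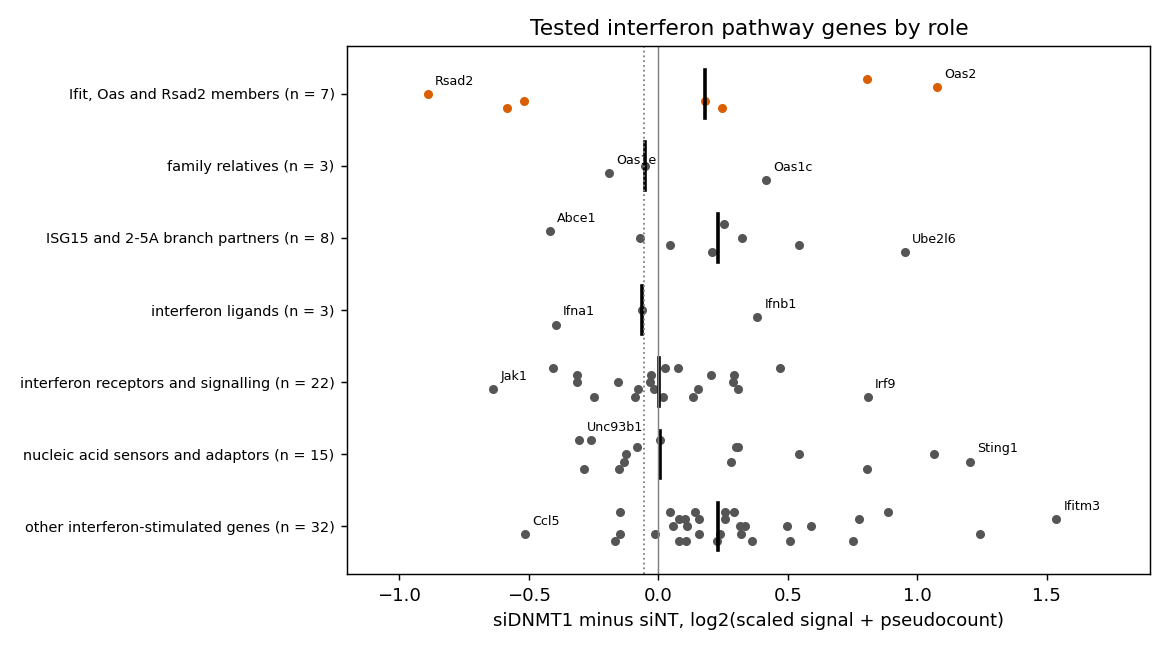
Difference siDNMT1 minus siNT (log2 of scaled signal + pseudocount) for the brightest tested probe set of each gene, by role, with a black bar at each median, a solid line at 0 and a dotted line at the median of all tested probe sets, -0.06. The 7 member genes run from -0.89 for Rsad2 to 1.08 for Oas2, and 27 of the 32 other interferon-stimulated genes lie above 0.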

How the data were processed

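The deposited table gives 1 linear intensity per probe set for each of the 6 arrays, made by the authors with GCOS per the submitters' processing notes; its version and settings and any detection calls are not stated in the sources used. Each array was scaled to 1 median log2 signal. A pseudocount of 5.29 (20th percentile of the deposited values) was added. Probe sets with a mean scaled signal under 16.8, the 40th percentile, and 64 controls were left out, so 27022 of 45101 were tested. Symbols came from the platform annotation, with older names matched through the RefSeq table of GRCm38.p6.

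limma 3.58.1 in R 4.3.3 (lmFit, eBayes with a trend, two-sided) compared siDNMT1 with siNT, adjusted by Benjamini-Hochberg over the whole tested table at a threshold of 0.05, and was tested on simulated data. After subtracting group means, arrays of the same repeat correlated at 0.173, 0.231 and 0.257. Arrays of different repeats correlated at -0.179 to -0.0283. The subtraction itself pushes these below 0 when the same-repeat values are positive, so they add no separate support. The labels tie the repeat numbers to independent rounds. With the positive same-repeat values, the numbers were taken to pair the arrays. Fits, and the SEs beside differences, have no block unless stated, so they leave out this pairing. The brightest tested probe set stood for a gene in the lists. Text names all members, tested family relatives and partners, and in other lists the up to 4 genes of smallest p. Members, lists and tests were chosen with earlier results of these data known. The number of arrays limits the precision. Alternatives changed the scaling, pseudocount, filter, trend, block and arrays. Protein sequences were not used here.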

Additional observations from a re-analysis of the deposited data

How the results depend on the processing

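Over 18 alternatives, 9 member probe sets gave 152 values, as some fell under the filter in some settings. Ifit1 had 14 values and Ifit3 had 15. Ifit1 had none with the stricter filter or with an array of repeat 3 left out, so its sign was not checked there. Of the 9 probe sets 2 turned sign, Rsad2 1421009_at in 2 settings and Rsad2 1436058_at in 1, each by leaving out arrays. The median over the member genes was 0.0020 with no filter, which lets in Ifit2, and 0.13 to 0.28 when an array or a repeat was left out. The count of probe sets past the threshold, 0 without the block, was 23 with the replicate block, 2 with no scaling, 1 each with quantile scaling, trimmed mean scaling and the stricter filter, and 0 to 4 when an array was left out, the 4 without siDNMT1 array 3. With the block it was 53 without repeat 1, 44 without repeat 2 and 261 without repeat 3. Pathway calls were 0 to 7 when an array or repeat was left out. With the block, Ifitm3 passed without repeat 1, Ifi35 without repeat 2 and 7 genes without repeat 3. In that last setting 261 probe sets passed in all. The Ifitm3 call includes siNT array 3, which lay at 1.01, under the pseudocount. Dnmt1 stayed at -1.54 with the replicate block and had an adjusted p of 0.0211 by limma there. It ran from -1.79 to -1.26 when an array was left out, with a limma adjusted p of 0.0438 without siDNMT1 array 3, and with the block it was -1.65 without repeat 1, -1.17 without repeat 2 and -1.79 without repeat 3. The replicate block changed no other call given here. The causes were not tested. Signals of Ifit1, Ifit2 and Ifit3 near or under the filter, with no background measure per array, limit what their differences show.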
